A study of Mus musculus with 2 samples.

Results

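Chemokine receptors were read as 7 genes, Cxcr2, Cxcr4, Cxcr3, Ccr1, Ccr2, Ccrl2 and Cx3cr1, taken by name from the 35522 features that both deposited expression tables list. All 7 were found under these symbols. Neutrophils had been sorted from mouse bone marrow as CD11b-positive, Ly-6G-high and Ly-6C-low to negative cells and were kept in RPMI-1640 with 10 ng/ml GM-CSF, a myeloid growth factor that both cultures received. One culture was given PBS and the other 20 μg/ml tumor exosomes, labelled ELV, each for 3 days. The exosomes came from cultures of CT26, a murine colon cancer line, grown as spheres in stem cell medium and termed SDCSCs (sphere-derived cancer stem cells). Each treatment had 1 RNA-seq library, so no value below has a replicate, and no difference could be tested against a spread between cultures. The study's methods name Balb/C mice, with an age range in weeks, as the source of immunocytes. Its results name tumor-free mice as the source of the neutrophils used to test exosome uptake. The labels give neither strain, age nor the number of animals.

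Chemokine receptors are membrane proteins with 7 transmembrane helices that signal through Gi proteins and steer leukocytes along gradients of chemokines. In neutrophils CXCR4, which binds CXCL12 made by marrow stroma, holds the cells in the bone marrow, while CXCR2, which binds CXCL1, CXCL2 and related CXC ligands, draws them into blood and inflamed tissue. CCR1 binds inflammatory CC chemokines, CCR2 guides monocytes towards CCL2, CX3CR1 binds the membrane-anchored chemokine CX3CL1, and CXCR3 is best known from activated T cells. CCRL2 is an atypical receptor that binds chemerin and does not couple to G proteins.

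Levels are given as RPKM, that is reads per kilobase of exon scaled to the mapped reads of the library, which allows genes to be set side by side. Depth was estimated from the smallest RPKM values, many of which stand for 1 read, as about 66000000 mapped reads for PBS and 79100000 for exosomes. Intervals are 95% counting intervals of the estimated reads. They cover counting error only and leave out cultures, animals and library preparation. Genes reaching 0.25 RPKM in each of both libraries were kept, and a kept gene was called higher or lower when the exosome to PBS ratio was at least 2 or at most 0.5.

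Of the 7 receptor genes, 4 (Cxcr2, Cxcr4, Cxcr3 and Ccr1) were at least 2-fold lower in exosome-treated neutrophils, and the 3 CXC receptors were all among them. Ccrl2 and Ccr2 were higher by less than 2-fold. Cx3cr1 was higher as well, but it lay below the RPKM limit in PBS. Thus 6 members were kept, 4 of them called lower and 0 called higher, beside 5.62% called lower and 31.5% called higher among all 9698 kept genes. The median log2 ratio of the 6 kept members was -1.36, and that of all kept genes was 0.53. At a 4-fold limit 0 members were lower and 0 higher, beside 1.14% and 8.52% of all kept genes. Most genes thus leaned towards higher values. With the median of 0.53 removed, 1634 kept genes were called higher and 1282 lower in place of 3056 and 545, and each of the 7 members kept its direction. Centring at the level of each gene turned the direction of Ccr2 alone, to a log2 ratio of -0.15 that counting error does not separate from 0. Fewer cells of a type and less RNA per cell cannot be told apart in bulk RNA.

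**Figure D1:**
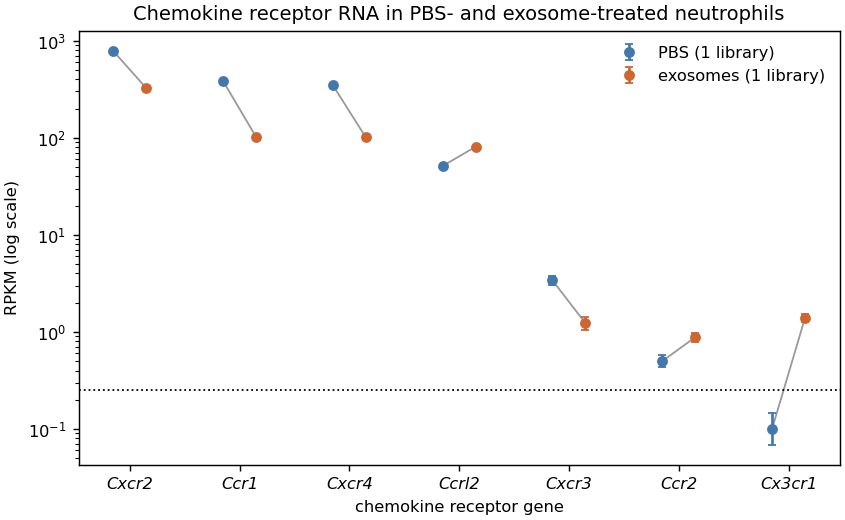
RPKM (log scale) of the 7 receptor genes, ordered by their PBS level, in the PBS library (blue) and the exosome library (orange), with 95% counting intervals of the estimated reads and a dotted line at the limit of 0.25. Cxcr2, Ccr1, Cxcr4 and Cxcr3 sit lower with exosomes, and Ccrl2, Ccr2 and Cx3cr1 sit higher.

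The DNA just upstream of the 3 abundant genes that were lower is shown first, because Cxcr4 and Ccr1 stood at similar levels in each library while the sequences before their start sites differed in makeup. The 250 bases before the RefSeq start (build GRCm38.p6) are written 5′ to 3′ on the strand of the gene, and capitals mark matches to the motifs named below.
Cxcr2 chr1:74153744-74153993 (plus strand): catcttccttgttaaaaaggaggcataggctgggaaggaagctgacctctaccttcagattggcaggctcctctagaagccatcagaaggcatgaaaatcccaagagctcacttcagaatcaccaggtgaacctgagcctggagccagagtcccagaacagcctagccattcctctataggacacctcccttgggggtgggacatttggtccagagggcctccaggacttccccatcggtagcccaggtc
Cxcr4 chr1:128592300-128592549 (minus strand): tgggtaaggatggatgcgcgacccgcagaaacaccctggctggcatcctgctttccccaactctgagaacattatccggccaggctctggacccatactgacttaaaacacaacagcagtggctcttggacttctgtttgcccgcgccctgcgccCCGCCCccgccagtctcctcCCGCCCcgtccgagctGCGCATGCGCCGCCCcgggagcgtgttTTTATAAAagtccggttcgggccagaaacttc
Ccr1 chr9:123968693-123968942 (minus strand): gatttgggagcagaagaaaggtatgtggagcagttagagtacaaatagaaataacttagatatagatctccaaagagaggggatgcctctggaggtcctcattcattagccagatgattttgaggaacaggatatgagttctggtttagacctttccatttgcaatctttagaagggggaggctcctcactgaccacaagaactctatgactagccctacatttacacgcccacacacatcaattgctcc
The window of 300 bases (250 before and 50 after the start) held 59.3% G and C for Cxcr4, 54.0% for Cxcr2 and 44.0% for Ccr1, beside a median of 52.7% over 32851 promoter windows. In Cxcr4, the capitals are GC boxes (CCGCCC) starting at positions -95, -75 and -50 from the start, an NRF-1 motif at -59, whose last base is also the first of the nearest GC box, and TATA motifs (TATAAA) on both strands that overlap at -32 and -30. GC boxes occurred in 35.7% of all windows, the TATA motif in 13.6% and the NRF-1 motif in 0.971%. These 3 motifs were added after the sequences had been read, so the shares do not measure how unusual the matches in Cxcr4 are. Cxcr2 and Ccr1 had no match to these or to 5 further motifs searched on both strands, which were PU.1 (GAGGAAGT, in 3.20% of windows), C/EBP (TTNNGCAA, 10.8%), STAT (TTCNNNGAA, 8.30%), NF-κB (1.63%) and the HIF core (ACGTG, 19.6%). NF-κB was searched in 1 strict form only. Looser forms were not searched, so the lack of a match, in Cxcr2 or any other member, does not cover them. Among the other members, Cxcr3 had a PU.1 match at -16 from its RefSeq start, a stretch that GENCODE M21 counts as transcribed. Each of the 3 windows of Ccrl2 had a HIF core, and 1 of these also had a GC box. The HIF cores at -99 and -125 are the same site, read from overlapping windows with different starts. Ccr2 and Cx3cr1 had no match. No motif, in the form searched, was shared by the 4 genes called lower. A match to these letters is a description and not a binding site.

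Cxcr2 (chromosome 1, 74153989 to 74161246, plus strand, GRCm38), the receptor for the CXC ligands that recruit neutrophils, had the highest RPKM of the 25 listed chemokine receptor genes in both libraries. It stood at 780.77 RPKM in PBS and 324.93 with exosomes, 2.40-fold lower (log2 ratio -1.26, interval -1.28 to -1.25). In PBS it ranked 36 among all features, and with exosomes 113. Cxcr1, which lies 30.5 kb away and encodes the sister receptor for CXC ligands, was far lower in RPKM and pointed the same way, at 3.25 and 1.45 (log2 ratio -1.16, interval -1.45 to -0.89). For CXCR2 protein, the study reported from flow cytometry that exosome-treated neutrophils retained it. The study also reported raised migration of such neutrophils, which fell when CXCL1 and CXCL2 were neutralized. Protein and migration are other measures than the RNA levels given here.

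Cxcr4 (chromosome 1, 128588199 to 128592293, minus strand), the marrow retention receptor, stood at 347.16 RPKM in PBS and 100.88 with exosomes. It was 3.44-fold lower, with a log2 ratio of -1.78 (interval -1.81 to -1.76). The ratio of Cxcr4 lay further from 1 than that of Cxcr2. The difference of the log2 ratios, Cxcr2 minus Cxcr4, was 0.52 (interval 0.49 to 0.55), a value that a single scaling factor between the libraries leaves unchanged. The RPKM of Cxcr2 was therefore 2.25 times that of Cxcr4 in PBS and 3.22 times with exosomes. Centring at the level of each gene, which is not a single factor, gave log2 ratios of -1.27 for Cxcr2 and -1.83 for Cxcr4.

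Ccr1 (chromosome 9, 123962124 to 123968692, minus strand), a receptor for inflammatory CC chemokines, showed the lowest ratio of the 7. Its RPKM was 383.78 in PBS and 101.97 with exosomes, 3.76-fold lower (log2 ratio -1.91, interval -1.93 to -1.89). Ccr1 lay above Cxcr4 in PBS, where their counting intervals did not overlap (381 to 387 RPKM against 344 to 351). With exosomes the levels of the pair were indistinguishable by counting error, at 101 to 103 RPKM for Ccr1 and 99.2 to 103 for Cxcr4.

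Cxcr3 (chromosome X, 101731535 to 101734269, minus strand) was a low gene, with 3.39 RPKM in PBS and 1.23 with exosomes. Its log2 ratio was -1.46, and the interval of -1.74 to -1.20 overlapped that of Cxcr2. These values rest on about 387 and 168 estimated reads. Of genes that define T cells, where CXCR3 is best known, several were near 0 in both libraries, with Cd3e at 0.06 and 0.04, Cd4 at 0.03 and 0.1 and Cd8a at 0.03 and 0.04 RPKM. Cd3d was far higher, at 56.44 and 7.02, and Cd3g was at 1.19 and 0.11. Lck was at 0.95 and 0.93, Lat at 0.86 and 0.48 and Cd8b1 at 0.04 and 0.06. The 8 T cell markers, none of them at 0, summed to 59.6 and 8.78 RPKM, mostly Cd3d, and 3 of them were higher with exosomes. Their part in the value of Cxcr3 was not tested. Of 5 NK cell markers, Eomes and Gzma were at 0 in both libraries and Ncr1 and Prf1 at 0 in PBS, and Klrb1c had the highest value, 0.51 with exosomes.

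Ccrl2 (chromosome 9, 111054486 to 111057519, minus strand), the atypical chemerin-binding receptor, was the only abundant member that was higher with exosomes. It stood at 51.25 RPKM in PBS and 80.84 with exosomes, 1.58-fold higher (log2 ratio 0.66, interval 0.62 to 0.70). The log2 ratio was above 0 at every scaling tried, and it was 0.13 when the median of all kept genes was set to 0. Cmklr1, which encodes the signalling chemerin receptor, had 0.06 RPKM in PBS and 1.6 with exosomes, about 11 and 365 estimated reads. Rarres2, the gene of chemerin itself, was low at 0.28 and 0.11.

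Ccr2 (chromosome 9, 124101950 to 124113557, plus strand) and Cx3cr1 (chromosome 9, 119901616 to 120069879, minus strand), both known from monocytes, were the lowest members in PBS. Ccr2 stood at 0.5 RPKM in PBS and 0.88 with exosomes. Its log2 ratio of 0.82 had an interval of 0.56 to 1.07 that includes the 2-fold limit. Of the kept genes nearest to Ccr2 in mean level, 49.1% were at least 2-fold higher. Their median log2 ratio was 0.97, which lies within the interval of Ccr2. Removing that median gave -0.15 for Ccr2, a value that counting error does not separate from 0.

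Cx3cr1 had the largest ratio of the members, 13.9-fold, from 0.1 RPKM in PBS to 1.39 with exosomes (log2 ratio 3.80, interval 3.25 to 4.36). About 30 and 494 estimated reads stood behind these values, and rounding of the RPKM alone allowed 3.72 to 3.88. With a pseudocount of 1 on both values the log2 ratio was 1.12. In the exosome library its RPKM (interval 1.27 to 1.52) could not be told from that of Cxcr3 (1.05 to 1.43), whereas in PBS Cxcr3 stood 33.9 times above it. Its ligand gene Cx3cl1 was near 0 in both libraries, at 0.06 and 0.07 RPKM.

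**Figure D2:**
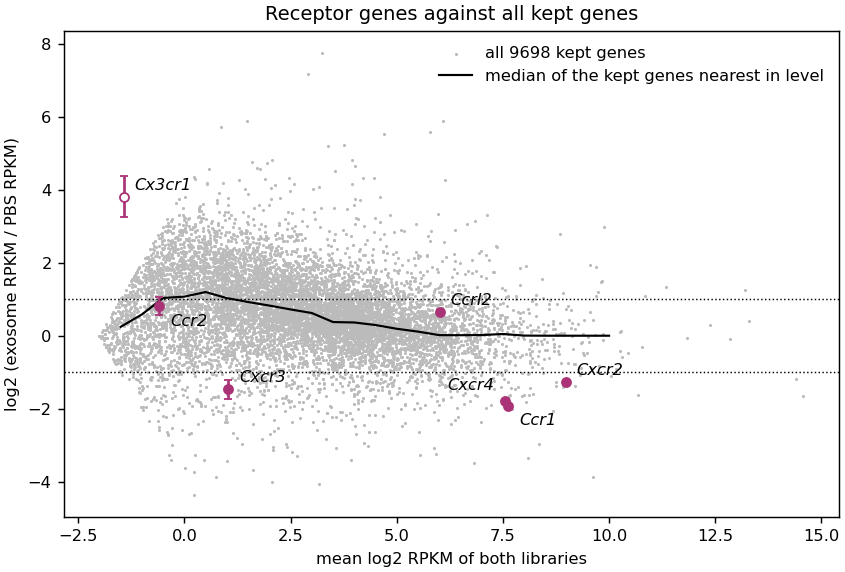
Log2 ratio of exosome to PBS RPKM against the mean log2 RPKM of both libraries for all kept genes (grey) and the 7 receptors (purple, with 95% counting intervals, Cx3cr1 open because it was not kept). Dotted lines mark 2-fold, and the black line is the median of the kept genes nearest in level, which is near 0 at the level of Cxcr2, Cxcr4, Ccr1 and Ccrl2 and near 1 at the level of Ccr2 and Cxcr3.

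The ratio of a typical gene depended on its level, and the members spanned that range. At the level of Cxcr2, Cxcr4 and Ccr1 the median log2 ratio of the kept genes nearest in level was 0.00, 0.04 and 0.04, and 12.0% of these genes were at least 2-fold lower for each of the 3. Their log2 ratios were thus almost the same before and after such centring, for instance -1.26 and -1.27 for Cxcr2. At the level of Cxcr3 the median was 1.03 and 3.99% of genes were at least 2-fold lower, so Cxcr3 stood at -2.49 after it. Over all 21 pairs of members, log2 ratios were also compared before such centring. The counting interval of the difference then included 0 for 2 pairs, Cxcr2 with Cxcr3 and Ccr2 with Ccrl2.

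To see whether the makeup of the receptor RNA differed, each gene was taken as a percent of the summed RPKM of 25 listed chemokine receptor genes within its library. A single scaling factor between the libraries cannot alter this measure, which says nothing of receptor protein. The sum was 1577 RPKM in PBS and 621 with exosomes, 0.394 times as much. The 7 members held 99.4% of it in PBS and 98.6% with exosomes. Cxcr2 held 49.5% and 52.3%. Ccr1 held 24.3% in PBS and 16.4% with exosomes, Cxcr4 held 22.0% and 16.3%, and Ccrl2 held 3.25% and 13.0%. The order in PBS was Cxcr2, Ccr1, Cxcr4, Ccrl2, Cxcr3, Ccr2 and Cx3cr1. With exosomes the first 4 kept this order, with Ccr1 and Cxcr4 not separable, and Cx3cr1 stood above Cxcr3 and Ccr2, where only Ccr2 (interval 0.80 to 0.97 RPKM) lay apart from it by counting error.

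**Figure D3:**
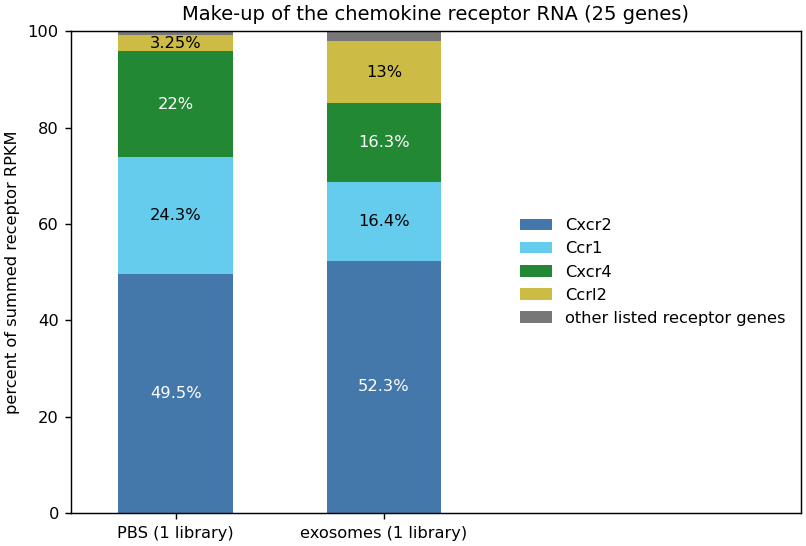
Percent of the summed RPKM of 25 chemokine receptor genes held by Cxcr2, Ccr1, Cxcr4, Ccrl2 and the remaining listed genes in each library (1 bar per library, no replicates). Cxcr2 takes 49.5% and 52.3%, while the part of Ccrl2 is 3.25% in PBS and 13.0% with exosomes.

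The other 18 receptor genes of the list were low, with at most 3.25 RPKM in PBS and 2.32 with exosomes. Only 4 were kept. Cxcr1, given above, was called lower (25% of the 4) and 0 were called higher, and 2 were called lower after centring at the same level. Among all 9698 kept genes 5.62% were called lower and 31.5% higher, and 1329 genes were called lower after centring at the same level. Cxcr5, which guides B cells into follicles, was at 1.38 and 2.32 RPKM. Ccr7, the lymph node homing receptor, was at 2.16 and 1.64. Ccr6 was at 0.5 and 0.6, and its interval of -0.25 to 0.76 around a log2 ratio of 0.26 includes 0. B cell markers stood well above these genes, with Cd79a at 38.25 and 24.44 and all 4 markers lower by less than 2-fold (summed RPKM 104 and 64.1), and their part in the values of Cxcr5, Ccr6 and Ccr7 was not tested. Ccr3, known from eosinophils, had 1.44 RPKM in PBS and 0.22 with exosomes. Of the 4 eosinophil markers the highest was Prg2 at 5.32 and 2.93, and their sum was 9.20 and 5.07; their part in the value of Ccr3 was not tested. Cxcr6, Ccr4 and Ccr8 were listed at 0 in both libraries.

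**Figure D4:**
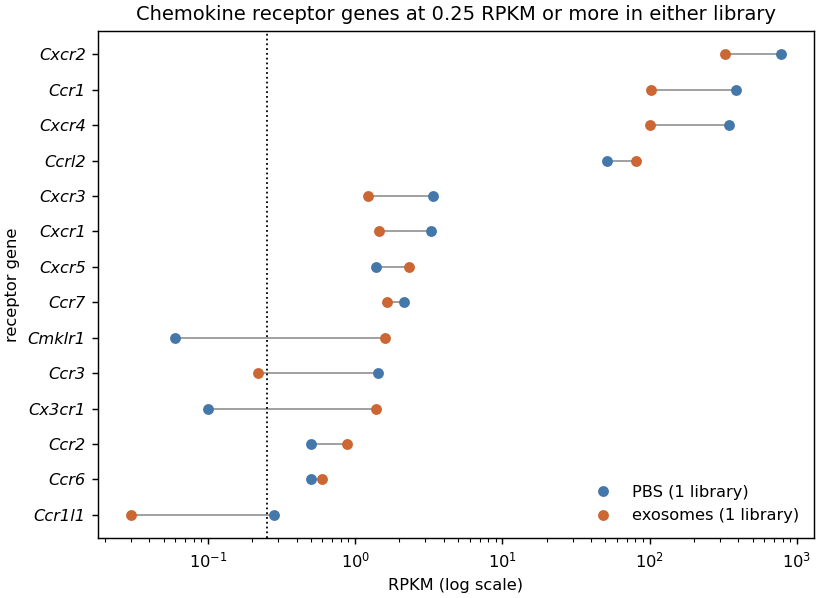
RPKM (log scale) in PBS (blue) and exosome (orange) libraries of chemokine receptor genes that reached 0.25 RPKM (dotted line) in either library. Cxcr2, Ccr1, Cxcr4 and Ccrl2 lie above 50 RPKM in both libraries, and the other genes shown lie below 4.

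Ccr1 and Ccr2 lie in the chemokine receptor cluster of chromosome 9, and before any centring genes of this cluster differed in direction. In chromosomal order, RPKM in PBS and with exosomes was 0.14 and 0.14 for Ccr9, 0 and 0 for Cxcr6, 0.00681 and 0.1 for Xcr1, 383.78 and 101.97 for Ccr1, 0.28 and 0.03 for Ccr1l1, 1.44 and 0.22 for Ccr3, and 0.5 and 0.88 for Ccr2. Ccr1, Ccr1l1 and Ccr3, which follow each other, were lower with exosomes, and Ccr2 beside them was higher. Centring at the same level gave Ccr2 a log2 ratio of -0.15, which counting error does not separate from 0. Xcr1, Ccr1l1 and Ccr3 were not kept, and Xcr1 had about 2 estimated reads in PBS. Ccr1l1 lies 8.55 kb from its paralog Ccr1, and its few reads (about 22 and 3) may include reads of Ccr1. Ccr8, which lies 22.2 kb from Cx3cr1, was at 0 in both libraries.

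Of 20 ligand genes 9 were kept, with a median log2 ratio of -0.27. Of these 9, 1 was called higher and 1 lower, 11.1% each, beside 31.5% higher and 5.62% lower among all kept genes. These counts depended on scaling, with 0 higher and 3 lower after median centring or removal of a trimmed mean, and 1 higher and 5 lower after centring at the same level. Among CXCR2 ligands, Cxcl2 was the abundant one at 366.71 and 346.81 RPKM, Ppbp was at 9.07 and 5.34, Cxcl1 at 4.97 and 5.33, Cxcl3 at 2.86 and 2.37, and Cxcl5 at 0.21 and 0.37. Cxcl12, the ligand of CXCR4, was at 0.00423 and 0.00176, about 2 and 1 estimated reads. Among CCR1 ligands, Ccl3 was at 320.37 and 725.93, Ccl6 at 921.59 and 117.29, Ccl9 at 6.99 and 9.78, and Ccl5 at 1.57 and 0.83. Ccl2 and Ccl7, ligands of CCR2, were at 0.13 and 1.72 and at 0.02 and 0.43, from about 9 and 1 estimated reads in PBS. Cxcl10 was the only CXCR3 ligand above 0, at 4.78 and 3.71.

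Of 34 kept signalling genes 3 were called higher and 2 lower, and 29 stayed within 2-fold, with a median log2 ratio of 0.23. The shares called higher and lower were 8.82% and 5.88%, beside 31.5% and 5.62% of all kept genes. After median centring, or with a trimmed mean removed, 2 of the 34 were called higher and 4 lower. Gnai2, the main Gi subunit of leukocytes, was at 547.12 and 688.21 RPKM. Pik3cg, the PI3-kinase driven by G protein βγ subunits, was at 56.85 and 79.38. Grk2 (listed as Adrbk1), which phosphorylates active receptors, was at 314.63 and 275.99, and Arrb2, an arrestin that ends their signal, was at 253.86 and 177.98. The 3 highest log2 ratios were those of Rgs10 (2.41), the receptor kinase gene Grk5 (1.81) and the Gβ gene Gnb1 (1.16). The 3 lowest were those of Rgs18 (-1.23), Rgs14 (-1.06) and Rgs2 (-0.98). RGS proteins switch off Gα subunits, and members of this family were thus found at both ends.

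Markers of the sorted cells and of other cell types differed between the libraries too. Of 11 neutrophil markers 9 were at least 2-fold lower and 0 higher (median log2 ratio -2.06, summed RPKM 84121 and 30530), among them Csf3r at 1548.56 and 715.09 and Ly6g at 286.96 and 56.19. Of 11 monocyte and macrophage markers 10 had a higher RPKM with exosomes and Ly6c2 did not (184.41 and 37.12). Only 7 of the 11 were kept, with 4 called higher and 1 lower (57.1% and 14.3%). Among all kept genes 31.5% were called higher and 5.62% lower, and 26.8% had a log2 ratio below 0. The 11 monocyte and macrophage markers summed to 466 and 706 RPKM and none was at 0. The defining genes ranged from abundant, with Csf1r at 58.1 and 152.64, to low, with C1qc at 0.27 and 3.79 and Mertk at 0.04 and 0.48. The part of these markers' cells in the values of Cxcr2, Cxcr4, Ccr1, Ccr2 and Cx3cr1 was not tested. Markers of dendritic cells summed to 2 and 0.8 RPKM, of basophils and mast cells to 1.79 and 1.64, of red cells to 1.55 and 0.107 and of epithelial tumor cells to 0.590 and 0.196, with Krt8 at 0 in both libraries.

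**Figure D5:**
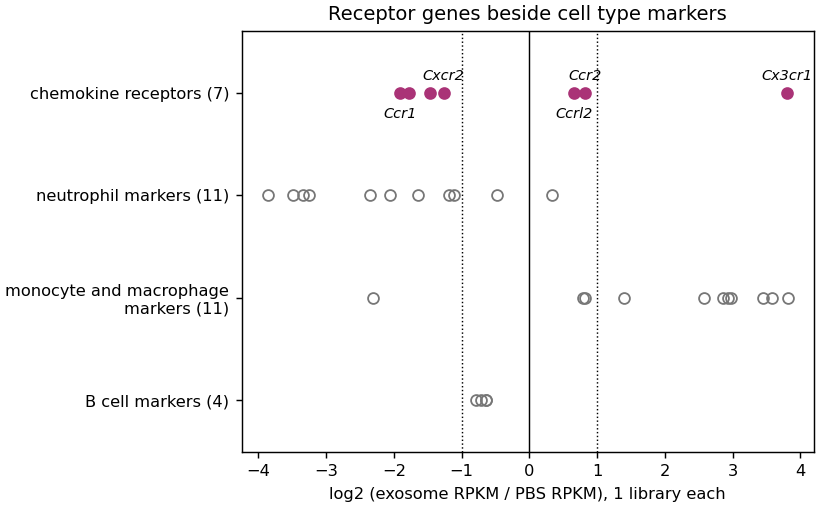
Log2 ratio of exosome to PBS RPKM (1 library each) of the 7 receptor genes (purple) and of marker genes of neutrophils, monocytes and macrophages, and B cells (open circles), with dotted lines at 2-fold. Cxcr2, Cxcr3, Cxcr4 and Ccr1 lie below 0 with 10 of 11 neutrophil markers, and Ccrl2, Ccr2 and Cx3cr1 above 0 with 10 of 11 monocyte and macrophage markers. Of all kept genes only 26.8% lie below 0 and the median log2 ratio is 0.53, so a place above 0 is common.

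The kept genes whose level in the 2 libraries was most like that of a receptor were found by the Euclidean distance in log2 RPKM. With 2 libraries this measures only that a pair of values is alike. Ccr1 and Cxcr4 were among each other's 2 nearest genes, at a distance of 0.15. The nearest to Cxcr4 was Ccr1, followed by Zfp36l2 (0.16), and the nearest to Ccr1 was Glipr1 (0.12). Cxcr2 was nearest to Lsp1, at 781.73 and 298.2 RPKM (0.12), and to S100a6 (0.32). Cxcr3 was nearest to Fbxl22 and Dnajc28, Ccr2 to D2Ertd750e and Dem1, and Ccrl2 to Lcp2 and Lamtor1, all within 0.09.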

How the data were processed

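RNA of 1 PBS-treated and 1 exosome-treated neutrophil culture was measured with TruSeq mRNA libraries on a HiSeq 2500. The authors trimmed reads by quality, analysed them in CLC Genomics Workbench v8.0 and deposited 1 RPKM value per feature and library (build mm10 per the labels). The annotation, the treatment of shared reads and any scaling between libraries are not given in the sources used here. RPKM values of 0.01 and above carry 2 decimals and smaller ones more, which blurs ratios of low genes at or above 0.01.

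Log2 ratios were taken with no pseudocount. Reads were estimated as RPKM times the longest GENCODE M21 transcript times the depth, which the commonest single-read value gave (225 of 918 features under 0.01 in PBS and 270 of 1064 with exosomes, within 1%). Read without lengths, the depth ratio was 1.20. Clopper-Pearson (ratios), Poisson (levels) and normal (differences) intervals cover counting error only. Scripts (Python 3.11.15, pandas 2.3.3, scipy 1.17.1) were tested on simulated data. With 1 library per group no test between groups was made, and RPKM values were not used as counts. Promoters were from RefSeq, with all 7 genes matched in 9 windows. The TATA, GC box and NRF-1 motifs were added after the sequences had been read. Older symbols were matched for listed genes, and 1 signalling gene (Dock2) was not analysed here. Members, lists and motifs were chosen with earlier results of these data known. Genes named were all members, receptors and ligands reaching 0.25 RPKM in either library or directly related to a member, fixed signalling genes with the 3 highest and 3 lowest ratios, chemoattractant receptors past 2-fold, markers, and the 2 genes nearest in level. The values of 2 listed genes are not reported here. Alternatives were 5 scalings, a pseudocount, 2 filters, 2 limits and another denominator.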

Additional observations from a re-analysis of the deposited data

How the results depend on the processing

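The 4 members called lower were the same in number under every scaling and filter tried. With a pseudocount of 1 they were 3, since Cxcr3 then had a log2 ratio of -0.98, and at a 4-fold limit they were 0. Members called higher were 0 at the 2-fold limit, 1 with an RPKM of 0.25 in either library and a pseudocount of 0.25 (Cx3cr1, 2.23), and 2 at a 1.5-fold limit. Median centring removed 0.53 from every log2 ratio, which gave -1.79 for Cxcr2, -2.31 for Cxcr4 and 0.13 for Ccrl2. Of 49 recomputed log2 ratios of members 1 had the other sign, -0.15 for Ccr2 after centring at the same level, which counting error does not separate from 0. Over all kept genes, those called higher and lower were 1634 and 1282 after median centring, 1594 and 1322 once a trimmed mean ratio was removed, 1215 and 1329 after centring at the same level, 826 and 111 at a 4-fold limit, and 4585 and 1092 at a 1.5-fold limit. A pseudocount of 1 gave 1976 higher, and an RPKM of 1 in both libraries gave 1958. Divided by the 7 members alone, Cxcr2 held 49.8% and 53.1% of receptor RPKM, and Ccr1 held 16.7% with exosomes. With the median in place of the longest transcript the interval of Ccr2 was 0.48 to 1.17. No paired analysis was possible because each group has 1 library, and no library could be left out. At the estimated depth 3 reads of Cx3cr1 correspond to 0.0101 RPKM in PBS and 0.00844 with exosomes.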

Other observations

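Receptors for other chemoattractants did not share 1 direction. Of 9 such genes 7 were kept. Among these 7, 3 were called higher and 2 lower (42.9% and 28.6%), beside 31.5% and 5.62% of all kept genes. Fpr1 and Fpr2, receptors for formylated bacterial peptides, were higher, at 383.64 and 1473.27 RPKM and at 429.08 and 1581.86. C3ar1, the receptor for complement C3a, was at 0.63 and 90.73. Ptafr, the receptor for platelet-activating factor, was lower, at 235.04 and 92.77, as was C5ar2 (listed as Gpr77), at 46.72 and 19.51. In PBS Cxcr2 had an RPKM above each of these genes, and with exosomes Fpr1 and Fpr2 stood above Cxcr2.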
